A study of Mus musculus with 13 samples.

Results

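The nuclear genes for the proteins of oxidative phosphorylation were followed in primary mouse embryonic fibroblasts (MEFs) and in lines that had immortalized spontaneously. Members were the protein-coding genes whose mouse symbol begins with Ndufa, Ndufb, Ndufc, Ndufs, Ndufv, Uqcr, Atp5, Cox4i, Cox5, Cox6, Cox7 or Cox8, or is Sdha, Sdhb, Sdhc or Sdhd. The rule used names only, and it found 94 of the 55487 genes counted. Each member was set to a complex by the start of its symbol alone. Complex I had 46 members, among them 8 assembly factors whose symbols begin with Ndufaf. Complex II had 4, complex III had 8, and complexes IV and V had 18 each. The 94 members carry 93 symbols, since a second gene named Atp5o (ENSMUSG00000116933) stands beside the first (ENSMUSG00000022956), and the second is called here by its identifier. A further 13 symbols met the name rule without being protein-coding.

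Oxidative phosphorylation takes place in the inner mitochondrial membrane. Complex I oxidizes NADH, complex II oxidizes succinate as part of the citric acid cycle, and both hand electrons by way of ubiquinone to complex III, which passes them through cytochrome c to complex IV, where oxygen is reduced to water. Complexes I, III and IV pump protons, and complex V, the ATP synthase, lets protons flow back to make ATP. A small share of the subunits is encoded by mitochondrial DNA, and all others, including every member described here, by nuclear genes whose products are imported. Several complex IV subunits exist as a common form and as forms found in muscle, lung or testis.

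The series holds 13 poly-A RNA-seq libraries of MEFs, each a clone named by number. Wild-type (WT) MEFs gave 3 primary libraries (clones 3, 4 and 5) and 3 immortalized libraries, and MEFs labelled Prkd3-/-, which lack the gene of protein kinase D3 by their label, gave 3 primary libraries (clones 13, 14 and 15) and 4 immortalized libraries (clones 13, 13a, 14 and 15). Immortalized lines arose by serial passage in a modified 3T3 protocol, with more fetal calf serum in the medium once the cells were senescent. Lines 13 and 13a carry the number of the same primary clone, and the labels do not say whether they arose separately. Age, sex and strain are not given in the labels used here.

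Between 35273408 and 100441756 counts were assigned to genes in each library. Genes of WT primary libraries varied by 4.12 to 6.77% beyond counting noise from library to library, those of the immortalized WT lines by 38.6 to 44.7%, those of the Prkd3-/- primary libraries by 15.7 to 39.5%, and those of the immortalized Prkd3-/- lines by 42.5 to 62.2%. Prkd3 itself was counted at 66.8 to 90.5 CPM (counts scaled to a common library size) in the WT libraries and at 35.0 to 62.6 CPM in the libraries labelled Prkd3-/-, with the scaling set within the table of each genotype, and counts over a whole gene do not show which exons a deletion removed. All 10 fibroblast markers were detected. Summed over 12 macrophage markers, none of them at 0 in every library, the level was 791 to 826 CPM in WT primary libraries and 37.4 to 120 CPM in the WT lines, with 9 of the 12 lower at an adjusted p-value under 0.05 by edgeR, and it was 108 to 1166 CPM in Prkd3-/- primary libraries and 12.6 to 203 CPM in those lines. The 6 endothelial markers summed to 11.2 to 15.8 CPM in WT primary libraries and to 0.358 to 1.94 CPM in the WT lines. In bulk RNA, fewer cells of a type and less RNA per cell cannot be told apart. None of the 37 mitochondrial genes listed had any count in any library, so the 13 subunits that mitochondrial DNA encodes are not described.

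Members were expressed at very different levels, which are compared here as FPKM, that is CPM per kilobase of exon. The length is that of all annotated exons of a gene, 4237 bases for Atp5b and 702 for Cox6a1. A single chosen transcript of each is shorter, at 1916 and 571 bases. The order of members by FPKM depends on the length used and can differ with transcript lengths. The mean over the 4 groups, whose 2 tables were scaled separately, ranged from 0.00191 to 203 FPKM with a median of 25.4 FPKM. At least 10 FPKM was reached by 66 of the 94 members, and 84 reached at least 1 FPKM. Atp5b, the catalytic beta subunit of the ATP synthase, had the highest mean level at 203 FPKM, followed by the complex IV subunit Cox6a1 at 183 FPKM and by Atp5a1, the alpha subunit that forms the catalytic ring with Atp5b, at 181 FPKM. This order did not hold in every group, since in WT primary libraries Atp5b stood at 159 FPKM ± 2.22 (SD, n = 3), below Cox6a1 at 173 FPKM ± 3.64, with Atp5a1 at 163 FPKM ± 5.34. In WT lines the SDs of Atp5b and Cox6a1, 29.6 and 31.0 FPKM, were larger than the distance between their means of 192 and 183 FPKM. Complex III members were even in level, between 29.3 and 58.9 FPKM, and complex II members lay between 24.8 and 52.7 FPKM. As a ratio, complex IV spanned the widest range, from 0.00191 FPKM for Cox8c, the form of subunit VIII described in testis, to 183 FPKM. All members together held 0.493 to 0.559% of the counts of a WT library and 0.598 to 0.732% of the counts of a Prkd3-/- library.

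The way reads were counted bears on these levels. By the command recorded for the WT table, only read pairs with a single place in the genome were counted, and many members have processed pseudogenes, which are copies of the spliced transcript elsewhere in the genome. In the reference annotation of the same build, 31 of the 94 members had at least 10% of their transcript's windows of 50 bases repeated letter for letter in a transcript of another gene, and 5 had at least 50%. Gapdh, a glycolytic enzyme with 213 such pseudogenes in this comparison, had 82.5% of its windows repeated. Atp5g2, a gene for the c subunit of the ATP synthase rotor, had 87.4% repeated and a mean of 0.770 FPKM, and Atp5l, which encodes the membrane subunit g, had 84.8% repeated and 0.360 FPKM. Cox7c, a common subunit of complex IV, had 53% repeated and 2.97 FPKM. The exon lengths behind these levels of Atp5g2, Atp5l and Cox7c were 1675, 6443 and 1131 bases. Their transcripts were shorter, at 731, 544 and 540 bases, so the length used lowers these FPKM apart from any repeat. For 45 members no window was repeated, Sdha, Sdhb and Cox4i2 among them. The coding sequence of Cox7c (chr13:86045753-86046675, GRCm38, minus strand, introns left out) is printed to show how far such repeats can reach into a coding part, with capitals for bases inside a window of 50 that also occurs in another gene.
Cox7c: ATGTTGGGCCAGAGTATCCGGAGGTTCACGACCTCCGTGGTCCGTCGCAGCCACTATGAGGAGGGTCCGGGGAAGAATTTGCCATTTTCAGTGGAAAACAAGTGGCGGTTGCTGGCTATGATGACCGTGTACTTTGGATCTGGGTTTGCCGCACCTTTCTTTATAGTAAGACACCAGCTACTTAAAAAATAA
All 192 coding bases of Cox7c are in capitals, and the same holds for the 312 coding bases of Atp5l, although with windows of 100 bases the repeated share of the transcript is lower, at 44.4% for Cox7c and 69.0% for Atp5l. How many pairs of these genes were left out was not tested. In the other direction, pairs were given to every gene they overlapped. All 530 exon bases of ENSMUSG00000116933 lie within exons of other genes, with the largest overlap in Donson, so it cannot be told apart from those genes. Its span also overlaps that of the first Atp5o, and how many pairs the 2 genes share was not tested. The 65.6% of Ndufaf2 exon bases that other genes share carry the same limit. So do the shared exon bases of the first Atp5o (47.9%), Ndufb6 (39.0%) and Ndufa13 (30.0%), the next largest shares.

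**Figure D1:**
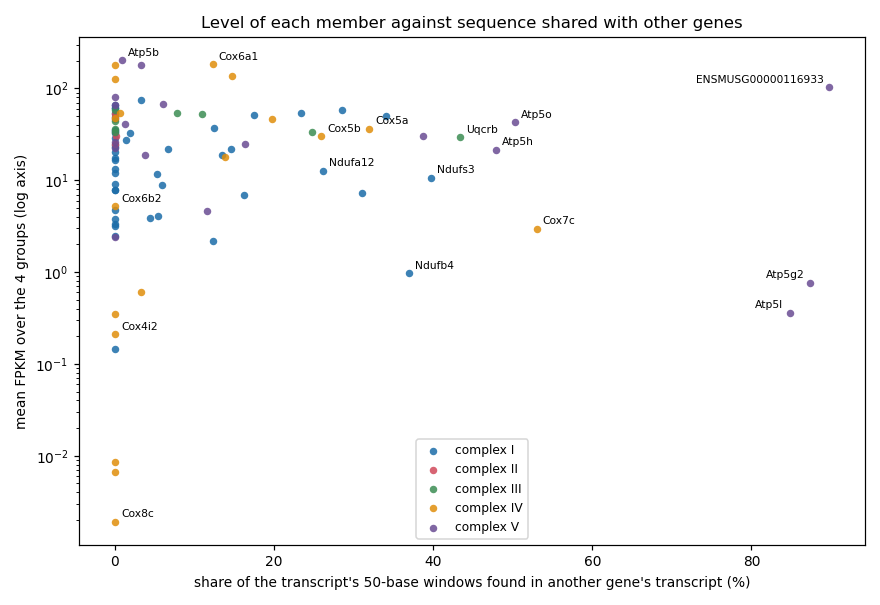
Level of each of the 94 members (mean FPKM over the 4 groups, log axis) against the percentage of its transcript's 50-base windows that also occur in another gene's transcript, coloured by complex. Atp5g2 and Atp5l, with 87.4% and 84.8% of windows repeated, lie at 0.770 and 0.360 FPKM, while ENSMUSG00000116933, with 89.8%, lies at 103 FPKM. FPKM use the length of all annotated exons, which for Atp5l is 6443 bases against a transcript of 544 bases.

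In WT MEFs, few members differed between primary and immortalized cells beyond the spread between libraries. Of the 94 members, 91 passed the filter on low counts and were tested, and the other 3, Cox7b2, Cox8b and Cox8c, had between 0 and 3 counts in any library. By edgeR's quasi-likelihood test, 0 members combined an adjusted p-value under 0.01 with a |Log2FC| of at least 1, while 1.82% of all 19836 tested genes did. DESeq2 placed 1 member past these thresholds, against 5.59% of the genes it tested. Limma, run here with a weight per state, placed 0, against 1.65%. In edgeR 8 members had an unadjusted p under 0.05, against 19.7% of all genes. At an adjusted p-value under 0.05 with no limit on size, which 5.27% of all genes passed, the count was 1 member, Cox4i2, which was lower. Of all genes, 4.57% were lower and 0.696% higher by this rule in edgeR. DESeq2 and limma each called 1 member by it as well, against 10.1% and 6.35% of the genes tested. The median Log2FC of the 91 members was 0.04, as was that of all tested genes, with 57 members above 0 and 34 below, against 54.2% of all genes above 0. Without WT line 5 the members' median was -0.014. Intervals were narrow for most members. The 95% interval of the Log2FC lay wholly between -1 and 1 for 83 of the 91, against 58.3% of all tested genes. The 8 whose interval reached beyond were the tissue forms or paralogues Ndufa4l2, Cox4i2, Cox6a2, Cox6b2 and Cox7a1 and, with repeated windows, Ndufb4, Ndufs5 and Cox7c.

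**Figure D2:**
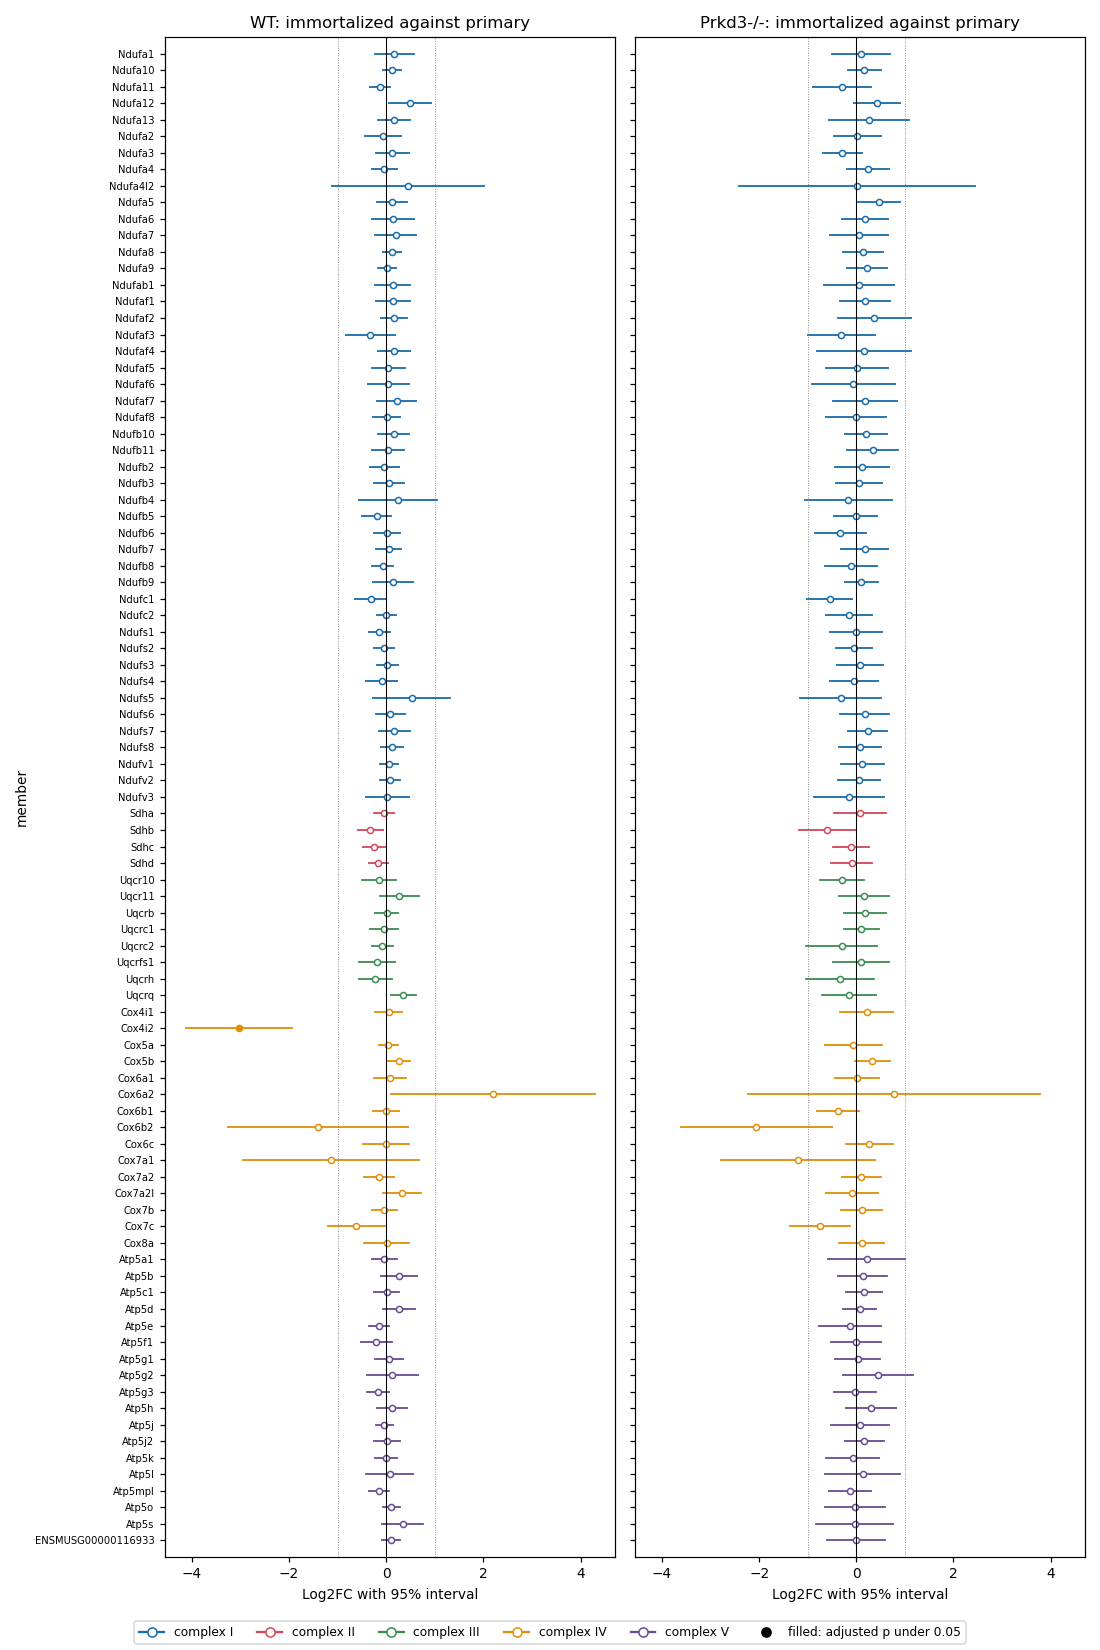
Log2FC of immortalized against primary MEFs for each member tested, with its 95% interval, in WT (left, 3 against 3 libraries) and Prkd3-/- (right, 4 against 3), coloured by complex; dotted lines mark -1 and 1. The filled symbol is Cox4i2 in WT, the only member that edgeR called at an adjusted p-value under 0.05, and most other intervals span 0.

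Cox4i2, the lung form of complex IV subunit IV that replaces Cox4i1 and is known for its link to oxygen sensing, was counted at 0.386, 0.315 and 0.484 CPM in the WT primary libraries and at 0.0311, 0.0327 and 0.0739 CPM in the WT lines. Every line lay below every primary library, and lines 3 and 4 held 2 counts each, under the 3 counts taken as a floor. Its Log2FC was -3.04, and between -3.18 and -2.87 under the alternatives named next, with a standard error of 0.45 and an adjusted p-value of 0.0186 by edgeR's quasi-likelihood test. The call was lost with the clone number as a block, where edgeR gave an adjusted p-value of 0.0906, in a joint fit of all 13 libraries, where it gave 0.119, and without any 1 of the 3 primary libraries, where it was 0.0831 to 0.103. Over all genes the share called fell as well, from 5.27% to 1.08% with the block and to 0.528% in the joint fit. The filter admitted Cox4i2 through the primary libraries alone, where it had 26 to 30 counts. The macrophage and endothelial markers given above were lower in the WT lines too. Of 4 endothelial markers tested in WT, 0 had a positive Log2FC and 1 passed an adjusted p-value under 0.05 by edgeR. In Prkd3-/-, the 12 macrophage markers had a median Log2FC of -3.27, with 0 positive and 0 passing. Cox4i2, not tested there, had group means of 0.115 CPM (SD 0.0756) in primary libraries and 0.107 CPM (SD 0.0824) in lines. Both epithelial markers tested in WT were lower at an adjusted p-value under 0.05 by edgeR. Of 4 neural crest and Schwann cell markers tested, 0 had a positive Log2FC and 0 passed. Of 8 mural cell markers, listed after the values of Cox4i2 were seen, 4 had a positive Log2FC and 0 passed. The part of any of these cell types in the result for Cox4i2 was not tested. Cox4i1, the common form, stood at 189, 187 and 189 CPM in primary libraries and at 170, 205 and 211 CPM in lines, a Log2FC of 0.05 within -0.22 to 0.33. Per kilobase of exon the common form exceeded the lung form in every group, at 121 against 0.501 FPKM in WT primary libraries and 126 against 0.0582 FPKM in WT lines.

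Complex I was the largest group. Its 46 members had a median Log2FC of 0.07 in WT, 35 were above 0, and 0 passed an adjusted p-value under 0.05 by edgeR, DESeq2 or limma, with 1 at an unadjusted p under 0.05. The 7 catalytic core subunits, which hold the flavin and the iron-sulfur clusters, ranged from -0.14 to 0.17. Ndufs1, the large iron-sulfur subunit, gave 72.3, 72.6 and 66.8 CPM in primary libraries and 69.5, 60 and 62.6 CPM in lines, and Ndufv1, the NADH-binding subunit, gave 54.7, 53.1 and 57.9 CPM and then 58.3, 57.6 and 56.2 CPM. For both the groups overlapped. The 31 other members, grouped as accessory subunits by name alone and with Ndufa4 and Ndufa4l2 among them, ranged from -0.32 to 0.53. Ndufa12, an accessory subunit at the base of the peripheral arm, had the smallest p among the positive ones: 16.0, 14.4 and 14.8 CPM in primary libraries were followed by 16.2, 24.4 and 22.8 CPM in lines. Its Log2FC of 0.49 had an adjusted p-value of 0.199 by edgeR, and 26.2% of its windows are repeated elsewhere. Ndufc1, a small subunit of the membrane arm, had the smallest p among the negative ones, with 17.3, 18.9 and 17.8 CPM followed by 14, 16.7 and 12.7 CPM (Log2FC -0.32, adjusted p-value of 0.259 by edgeR). The 8 assembly factors, which guide the building of complex I and are absent from the finished enzyme, had a median of 0.09 and ranged from -0.33 to 0.22.

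Complex II stood apart in sign only. All 4 members, which form succinate dehydrogenase, had a negative Log2FC in WT, with a median of -0.21, and for 3 of the 4 every line lay below every primary library. Sdhb, the iron-sulfur subunit, was at 57.5, 56.9 and 58.6 CPM in primary libraries and at 50.7, 46.8 and 40.6 CPM in lines, and its Log2FC of -0.32 had an adjusted p-value of 0.161 by edgeR. Sdhc, which anchors the enzyme in the membrane, was at 95.6, 98.4 and 105 CPM and then at 81.8, 77.6 and 91.3 CPM, with a Log2FC of -0.25 and an adjusted p-value of 0.218 by edgeR, and Sdhd, the second anchor, had a Log2FC of -0.16. The flavoprotein Sdha, the catalytic subunit, overlapped between groups at 176 to 182 CPM in primary libraries and 166 to 178 CPM in lines. No complex II member passed an adjusted p-value under 0.05 by edgeR, DESeq2 or limma, and 2 of the 4 had an unadjusted p under 0.05. Groups without overlap were common over the whole table, where the lines lay below all primary libraries in 17.4% of tested genes and above them in 14%. Among members these counts were 12 of 91 and 11 of 91.

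In complex III, 3 of 8 members were positive and none passed by edgeR, DESeq2 or limma, with 1 at an unadjusted p under 0.05. That was Uqcrq, a small subunit of the complex, at 53.9, 52.5 and 52.3 CPM in primary libraries and 63.5, 62.2 and 76.3 CPM in WT lines (Log2FC 0.35, adjusted p-value of 0.142 by edgeR). Uqcrh, the hinge protein that contacts cytochrome c1, had the smallest p among the negative ones, with a Log2FC of -0.23 and overlapping groups. Uqcrc1, a core protein of the complex, stood at 133 to 138 CPM in primary libraries and 119 to 151 CPM in lines. Uqcrfs1, the Rieske iron-sulfur protein, stood at 53.7 to 55.2 CPM and then at 55.3, 50.1 and 37.6 CPM, so line 5 was the lowest and line 4 also lay below the primary libraries.

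In complex V, 11 of 18 members were positive in WT and none passed by any of the 3 tools, nor at an unadjusted p under 0.05 by edgeR. Atp5b was at 680, 665 and 682 CPM in primary libraries and at 808, 941 and 691 CPM in lines, and Atp5a1 was at 496 to 529 CPM and then at 483 to 518 CPM. Every line was above every primary library for Atp5b, yet the interval of its Log2FC ran from -0.10 to 0.64. The c subunit of the rotor is encoded by 3 genes with different import signals. Atp5g3 was the main source of counted pairs, at 127 to 129 CPM in primary libraries and 104 to 124 CPM in WT lines (Log2FC -0.17, adjusted p-value of 0.382 by edgeR), Atp5g1 stood at 19.5 to 21.6 CPM and 18.3 to 22.5 CPM, and Atp5g2 at 0.873 to 1.12 CPM and 1.01 to 1.2 CPM under the limit of its repeated windows. Atp5s, a factor of the complex with the smallest p among the positive ones, had a Log2FC of 0.34 and an adjusted p-value of 0.347 by edgeR.

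Of the 15 complex IV members tested in WT, Cox4i2 alone passed an adjusted p-value under 0.05 by edgeR. Tissue forms of complex IV subunits were few in counts and wide in spread, while the 10 common subunits of that complex held a median Log2FC of 0.01 in WT. Cox6b2, the testis form of subunit VIb, was the best counted of them. It stood at 10.1, 9.19 and 8.60 CPM in WT primary libraries and at 3.48, 0.605 and 6.40 CPM in WT lines, below the primary libraries in each line, with an adjusted p-value of 0.374 by edgeR for a Log2FC of -1.41. Its common counterpart Cox6b1 overlapped, at 85.5 to 90.3 CPM and 75.9 to 97.2 CPM. Cox6a2, the heart and skeletal muscle form of subunit VIa, had 12 to 18 counts in primary libraries and 17, 134 and 33 counts in lines, so its Log2FC of 2.19 (adjusted p-value of 0.236 by edgeR) rested on line 4, at 2.19 CPM against 0.264 and 0.488 CPM in the others. Cox6a1 stood at 118 to 123 CPM and 111 to 153 CPM. Cox7a1, the other muscle form, was at 0.158 to 0.397 CPM and 0.0311 to 0.251 CPM, far below Cox7a2 at 29.5 to 39.7 CPM over the WT libraries. Skeletal muscle markers were low as well, at 54.7 to 57.1 CPM summed over 12 genes in WT primary libraries and 7.60 to 39.3 CPM in WT lines, and 0 of the 6 that were tested passed by edgeR, with 2 at an unadjusted p under 0.05. Cox7a2l, which helps to join complexes III and IV, was at 62.2 to 63.8 CPM in primary libraries and 68.8, 68.0 and 98.5 CPM in WT lines (Log2FC 0.32, adjusted p-value of 0.346 by edgeR).

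Some forms were close to absent. Cox8b had 1 count in WT line 4 and 2 counts in Prkd3-/- line 15, Cox7b2 had 1 and 3 counts in a library each, and Cox8c had 1 count in 1 library. With 3 counts as the limit that a count of 0 allows, levels up to 0.0288 to 0.0877 CPM, depending on the library, would not have been seen, and such limits cover counting error only. Cox8a, the common form of subunit VIII, stood at 93.6 to 104 CPM in WT primary libraries and at 86.8, 84.4 and 131 CPM in WT lines, and Cox7b at 58.2 to 62.0 CPM and 54.7 to 66.5 CPM. Ndufa4l2, a paralogue of Ndufa4 known to be raised in hypoxia, was at 0.0890 to 0.200 CPM in WT primary libraries and 0.0622 to 0.296 CPM in WT lines, and Ndufa4 at 75.3 to 84.9 CPM and 70.4 to 85.7 CPM. The common subunits Cox5a and Cox5b stood at 62.2 to 64.3 CPM and 37.2 to 41.2 CPM in WT primary libraries. Cox5a overlapped with the lines, at 62.7 to 70.9 CPM, while Cox5b was at 43.5, 45.7 and 50.6 CPM in the lines, above every primary library (Log2FC 0.25, adjusted p-value of 0.215 by edgeR).

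**Figure D3:**
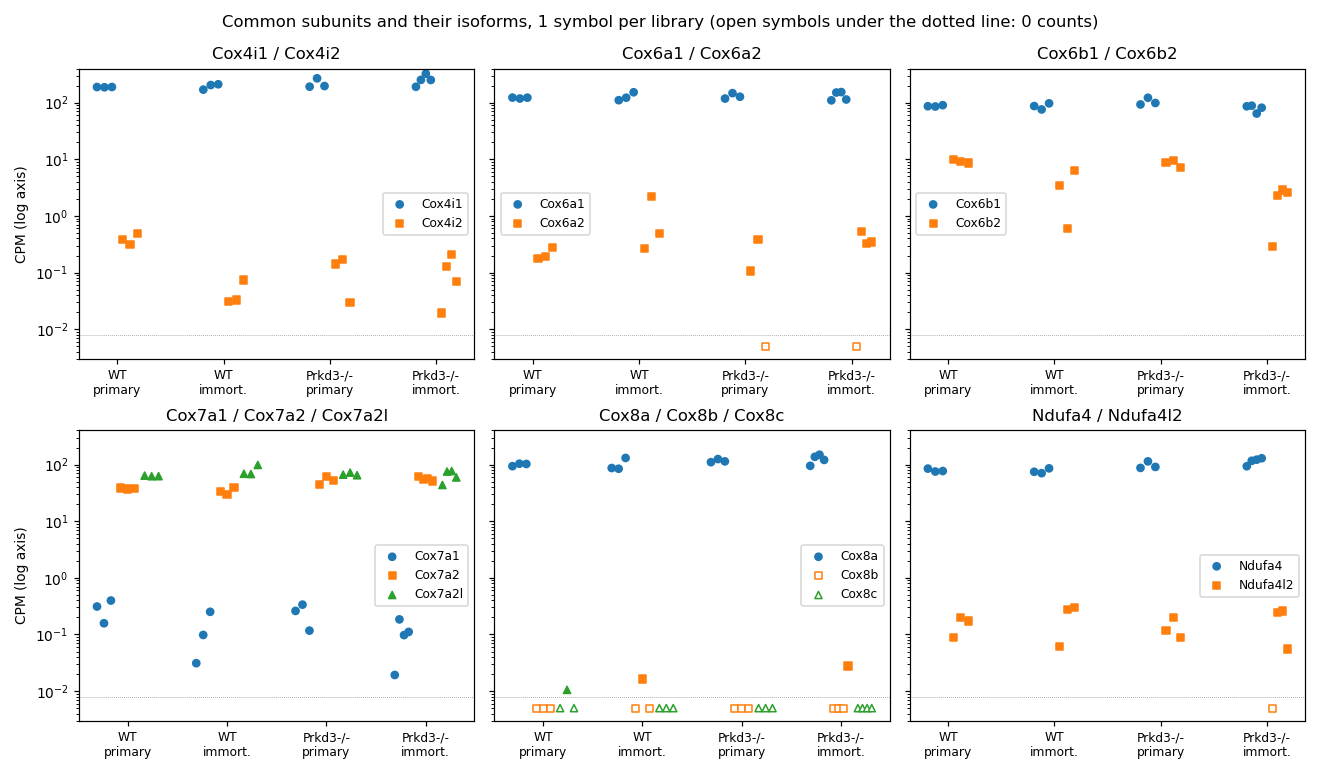
CPM (log axis) of 6 subunits and their tissue or paralogous forms in each library, by genotype and state; open symbols under the dotted line mark libraries with 0 counts. Common forms lie at 29.5 CPM or more in every library, Cox6b2 lies at 8.60 to 10.1 CPM in WT primary libraries and at 0.605 to 6.40 CPM in the WT lines, while Cox4i2 reaches at most 0.484 CPM.

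In Prkd3-/- MEFs, 90 members were tested, Cox4i2 having failed the filter with 1 to 18 counts per library. No member passed either threshold in edgeR's test, in which 0.0% of all 20298 tested genes passed. DESeq2 called 0 members by either threshold, against 353 of 24343 genes at an adjusted p-value under 0.05 and 190 at the study's thresholds. Limma called 0 members, against 14 genes at an adjusted p-value under 0.05 and 0 at the study's thresholds. An unadjusted p under 0.05 was found for 5 members, against 6.56% of all genes. The median Log2FC of members was 0.06 and that of all genes 0.07. The members' median was 0.0053 without primary clone 13, 0.0068 without line 13, 0.0076 with lines 13 and 13a summed and 0.14 without primary clone 14. The 95% interval lay within -1 to 1 for 74 of 90 members against 38.4% of all genes. Complex I had a median of 0.07, complex III of -0.03, complex IV of 0.06 and complex V of 0.05, while complex II again had the lowest, -0.10, with 3 of 4 members negative. Over all complexes 53 of 90 members were above 0, against 56.9% of all genes. The lines and the primary libraries did not overlap for 10 members, against 9.48% of all genes, with the lines above for 5 (4.03% of all genes) and below for 5 (5.45%).

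The 5 members with an unadjusted p under 0.05 were 1 positive and 4 negative. Ndufa5, a complex I subunit of the peripheral arm, was at 20.3, 21.4 and 16.9 CPM in the primary libraries and at 23.9, 25.2, 29.8 and 28.9 CPM in lines 13, 13a, 14 and 15 (Log2FC 0.47, adjusted p-value of 0.730 by edgeR). Sdhb was at 66.1, 80.5 and 66.7 CPM and then at 57.9, 59.0, 32.9 and 38.6 CPM, with a Log2FC of -0.59 and an adjusted p-value of 0.751 by edgeR. Lines 14 and 15 were the low ones. Ndufc1 was at 20.4, 27.5 and 19.6 CPM and then at 16.0, 14.9, 16.8 and 13.9 CPM, a Log2FC of -0.55. Cox6b2 stood at 8.76, 9.38 and 7.07 CPM in primary libraries and at 0.289, 2.31, 2.87 and 2.58 CPM in lines, a Log2FC of -2.06 with an adjusted p-value of 0.650 by edgeR, the smallest among members. Cox7c stood at 4.76, 7 and 5.14 CPM and then at 3.25, 2.96, 3.88 and 3.34 CPM, a Log2FC of -0.75 under the limit of its repeated windows.

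Of the core subunits in Prkd3-/- cells, Sdhb had no overlap between states and the following overlapped. Atp5a1 was at 538 to 628 CPM in primary libraries and at 455 to 585 CPM in lines 13a, 14 and 15, and line 13 stood alone at 1156 CPM. Atp5b was at 869 to 978 CPM and 805 to 1267 CPM. Ndufs1 ranged from 58.4 to 96.7 CPM over the lines, with primary libraries inside that range at 75.5 to 79.3 CPM, Sdha from 165 to 262 CPM and Cox4i1 from 191 to 325 CPM. Among the members with the smallest p of their sign, Uqcr10 had a Log2FC of -0.29, Uqcrb of 0.19, Atp5mpl of -0.13 and Atp5g2 of 0.45, and the adjusted p-values of these 4 by edgeR were 0.843 to 0.908. Prkd3-/- primary clone 14 sat above clones 13 and 15 for most members: its median log2 ratio to the mean of the 3 was 0.16, against -0.11 and -0.07, and 85 of 90 members were above 0 in it. Clone 14 was also the deepest library, and what set it apart was not tested.

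The change with immortalization was compared between genotypes as an interaction over the 13 libraries. None of the 91 members tested passed an adjusted p-value under 0.05 by edgeR, DESeq2 or limma. Of all genes, 0.0% of 21197 passed by edgeR, 37 of 30046 by DESeq2 and 0 by limma. By edgeR 1 member, Cox4i2, had an unadjusted p under 0.05, against 3.97% of all genes. Its Log2FC differed by 2.86 (95% interval 0.64 to 5.09, adjusted p-value of 1.00 by edgeR) on the counts of 1 to 30 given above. For 73 of the 91 members the interval of the difference lay within -1 to 1, against 30.8% of all genes. After Cox6a2, at -1.41 (-5.00 to 2.17), the most negative differences were those of Ndufs5 at -0.84 (-1.93 to 0.24), Cox6b2 at -0.65 (-2.93 to 1.63) and Uqcrq at -0.49 (-1.08 to 0.10). A p that misses the threshold does not show that the genotypes behaved alike.

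Side by side, the Log2FC had the same sign in both genotypes for 66 of the 90 members tested in both, 43 of them positive, against 64.8% of all genes tested in both. Across members Pearson's r was 0.72 and Spearman's rho 0.47, and across all genes 0.55 and 0.37. Genes of the same chromosome can shift together within a line, and Log2FC at low counts are noisy, so these are descriptions. All lines were on the same side of all primary libraries in both genotypes for 7 members. Ndufa10, Ndufa12 and Cox5b were above, where 1.37% of all genes were, and Ndufc1, Sdhb, Cox6b2 and Cox7c were below, where 2.78% of all genes were. None of the 7 passed an adjusted p-value under 0.05 in either genotype by edgeR. Ndufa10, an accessory subunit of complex I, Cox7c, Sdhc, Sdhd, Atp5l, Atp5h, Ndufaf2, Ndufb4 and Ndufs5 were named after their values had been seen.

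Promoters were read to see what these genes share beyond their names. RefSeq windows of 250 bases before the start (GRCm38.p6) were at hand for 74 of the 93 symbols. The letters GCGCANGCGC, bound by the nuclear respiratory factor NRF1, occurred on either strand in 19.0% of the 79 member windows and in 3.74% of all 32851 windows, CCGGAAG, bound by ETS factors such as GABP, in 17.7% and 6.91%, and AANATGGC, bound by YY1, in 8.86% and 3.91%. The CCAAT box (CCAAT) was in 43.0% of member windows and 33.8% of all, the GC box (GGGCGG) in 36.7% and 32.7%, and the TATA letters (TATAAA) in 8.86% and 12.4%. Only 3 members, Atp5h, Cox6a1 and Sdhd, held both the NRF1 and the ETS letters. Their windows are printed beside those of Ndufa12 and Sdhb, which are among the 7 members with no overlap in either genotype. Of these 7, 0 held the NRF1, ETS or YY1 letters. The NRF1 or ETS letters were in 32.9% of member windows and 10.1% of all windows. Only exact letters were searched for, so sites that differ by a base were not counted. Capitals mark these letters, the CCAAT box and the GC box on either strand, and the run ends at the base before the start.
Atp5h (chr11:115419920-115420169, minus strand): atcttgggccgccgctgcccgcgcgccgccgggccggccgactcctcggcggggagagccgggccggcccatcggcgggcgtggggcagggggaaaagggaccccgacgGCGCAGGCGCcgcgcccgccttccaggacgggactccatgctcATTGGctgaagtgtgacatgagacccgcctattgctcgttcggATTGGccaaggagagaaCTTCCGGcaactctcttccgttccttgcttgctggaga
Cox6a1 (chr5:115348959-115349208, minus strand): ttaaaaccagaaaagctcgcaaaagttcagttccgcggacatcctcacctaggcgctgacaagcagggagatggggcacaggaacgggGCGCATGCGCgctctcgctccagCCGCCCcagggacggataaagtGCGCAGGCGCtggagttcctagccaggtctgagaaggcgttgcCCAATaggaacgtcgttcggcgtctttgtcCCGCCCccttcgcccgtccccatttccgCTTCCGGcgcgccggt
Sdhd (chr9:50603850-50604099, minus strand): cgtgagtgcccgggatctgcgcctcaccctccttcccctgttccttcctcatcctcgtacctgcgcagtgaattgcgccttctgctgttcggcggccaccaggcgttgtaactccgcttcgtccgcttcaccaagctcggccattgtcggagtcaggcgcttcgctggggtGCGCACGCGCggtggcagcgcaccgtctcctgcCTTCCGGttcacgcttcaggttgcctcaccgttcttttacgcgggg
Ndufa12 (chr10:94198785-94199034, plus strand): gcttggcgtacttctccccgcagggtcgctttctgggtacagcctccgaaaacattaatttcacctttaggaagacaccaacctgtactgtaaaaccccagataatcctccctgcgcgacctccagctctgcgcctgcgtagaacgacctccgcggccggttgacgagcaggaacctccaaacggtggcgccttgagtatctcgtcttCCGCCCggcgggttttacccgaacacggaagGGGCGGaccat
Sdhb (chr4:140961021-140961270, plus strand): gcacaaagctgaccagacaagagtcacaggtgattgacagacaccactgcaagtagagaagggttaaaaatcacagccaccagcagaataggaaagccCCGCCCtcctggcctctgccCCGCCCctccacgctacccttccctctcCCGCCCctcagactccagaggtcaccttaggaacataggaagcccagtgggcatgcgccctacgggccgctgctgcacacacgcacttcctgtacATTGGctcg
In Cox6a1 the NRF1 letters occur at 2 places, 1 of which reads the same on both strands, and the ETS letters follow 16 bases before the start. In Sdhd the NRF1 letters begin 79 bases and the ETS letters 46 bases before the start. Sdhb has the GC box 3 times and the CCAAT box 9 bases before the start, and Ndufa12 has the GC box 2 times. The starts are those of RefSeq. In the annotation used for the counts, Ndufa12 begins at 94198720, so its window lies wholly inside that gene. The windows of Sdhb, Atp5h and Cox6a1 lie partly inside theirs. A match is a description of the sequence and not a bound site.

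Single lines were more uneven than the group medians. The SD between libraries on the log2(CPM + 1) scale had a median over members of 0.05 in WT primary libraries and 0.17 in WT lines, and of 0.16 and 0.26 in Prkd3-/-, and over all tested genes it was 0.06, 0.22, 0.17 and 0.36. Against the mean of the primary libraries of its genotype, the median member was at -0.05, -0.03 and 0.12 in WT lines 3, 4 and 5, and at 0.06, 0.07, 0.14 and -0.12 in Prkd3-/- lines 13, 13a, 14 and 15. Prkd3-/- line 15 had the lowest median of the 7 lines, and WT line 5 had 62 of 91 members above 0. Complex II was below 0 in all 3 WT lines, with medians of -0.18, -0.25 and -0.12, and in 3 of the 4 Prkd3-/- lines, being at 0.02 in line 13.

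**Figure D4:**
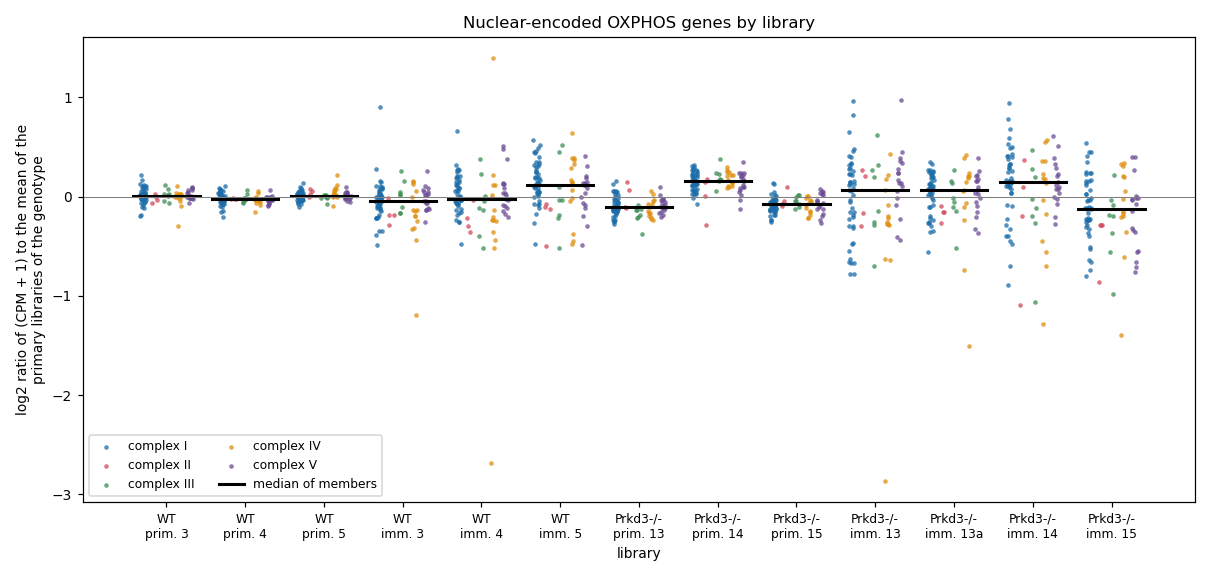
Log2 ratio of CPM + 1 of each tested member to the mean of the primary libraries of its genotype, by library and coloured by complex, with the median of members as a bar. The WT primary libraries lie close to 0, lines scatter more widely, and medians stay between -0.12 and 0.16; the lowest symbol is Cox6b2 in 6 of the 7 lines and Uqcrfs1 in WT line 5.

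Within a line, members were compared with their chromosomes. Medians over the members of a chromosome and over all tested genes of that chromosome were compared for the 19 chromosomes that carry members, and Pearson's r was 0.56, 0.70 and 0.80 in WT lines 3, 4 and 5 and 0.57, 0.79, 0.90 and 0.95 in Prkd3-/- lines 13, 13a, 14 and 15. In Prkd3-/- line 15, chromosome 4 had a median log2 ratio of -0.49 over 1181 genes, and its 6 tested members, Sdhb among them, had one of -0.77. The same line had 0.36 over 1049 genes of chromosome 6, with 0.42 for the 4 members there (Ndufa4, Ndufa5, Ndufa9 and Ndufb2). Line 14 had -0.45 over chromosome 7 and -0.58 for its 8 members, 5 of complex IV or III. In WT line 4, chromosome 10 was at 0.35 and its 6 members, with Atp5b and Ndufa12, at 0.43. Copy number was not measured here, and a chromosome's median does not tell it from other causes.

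**Figure D5:**
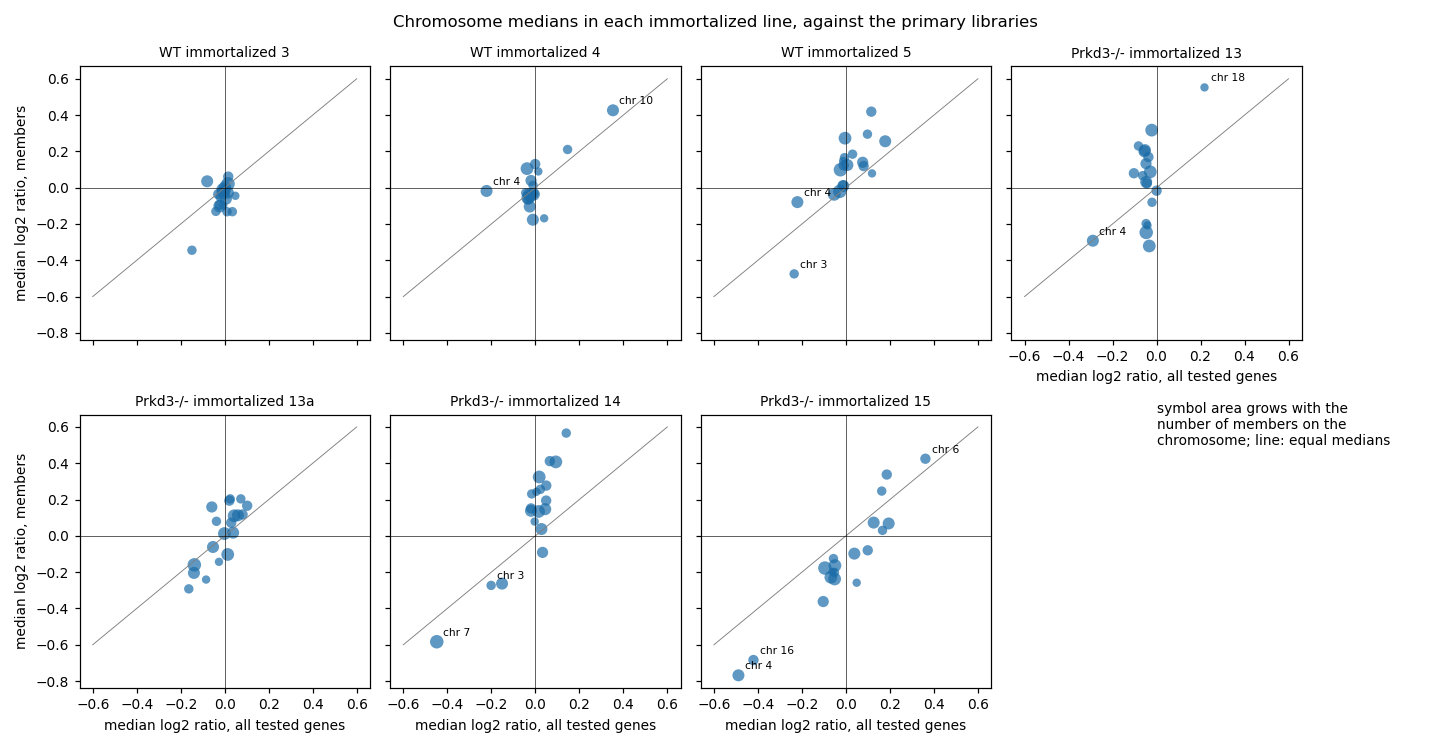
Median log2 ratio of the members on a chromosome (vertical) against that of all tested genes on it (horizontal), 1 symbol per chromosome and 1 panel per immortalized line, with the area growing with the number of members and the grey line marking equality. Chromosomes 4 and 16 in Prkd3-/- line 15 and chromosome 7 in line 14 lie at the lower left, and chromosome 10 in WT line 4 at the upper right.

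For the members with no overlap, the ratio in a line was set beside the median of the other genes of its chromosome. Sdhb, on chromosome 4, had log2 ratios of -0.18, -0.30 and -0.50 in WT lines 3, 4 and 5, where the chromosome stood at -0.08, -0.22 and -0.22. In Prkd3-/- lines 13, 13a, 14 and 15 it had -0.29, -0.26, -1.09 and -0.86, where the chromosome stood at -0.29, -0.14, -0.15 and -0.49, so that line 14 differed from its chromosome by -0.94 and line 15 by -0.37. Ndufa12, on chromosome 10, had 0.095, 0.66 and 0.57 in the WT lines with the chromosome at 0.0014, 0.35 and 0.18, and in the Prkd3-/- lines it had 0.65, 0.32, 0.14 and 0.45 with the chromosome at -0.055, 0.060, 0.045 and 0.19. Ndufc1, on chromosome 3, stood from -0.66 to -0.099 over the 7 lines with the chromosome between -0.23 and -0.043. Cox7c, on chromosome 13, stood from -0.74 to -0.31 with the chromosome between -0.068 and 0.015, and Ndufa10, on chromosome 1, from 0.066 to 0.26. Cox6b2, on chromosome 7, stood from -2.87 to -0.47 over the 7 lines with the chromosome between -0.45 and -0.01, and Cox5b, on chromosome 1, from 0.15 to 0.41 with the chromosome between -0.05 and 0.12. The part of chromosome shifts in the group comparisons was not tested.

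Other genes of the pathway were tested in the same fits. Of 9 electron carriers and subunits outside the name rule, 42 further assembly factors, 18 regulators of mitochondrial biogenesis, 17 genes of the citric acid cycle and pyruvate dehydrogenase and 78 mitochondrial ribosomal proteins, all were tested and 0 passed an adjusted p-value under 0.05 in either genotype by edgeR. At an unadjusted p under 0.05 the counts were 1, 4, 4, 4 and 8 in WT, where 19.7% of all genes had such a p, and 0, 2, 2, 1 and 3 in Prkd3-/-, where 6.56% had. Their median Log2FC was -0.03, 0.07, 0.09, 0.09 and 0.05 in WT and 0.07, 0.05, 0.23, 0.09 and 0.13 in Prkd3-/-, beside 0.04 and 0.07 for all tested genes. Tfam, which packages mitochondrial DNA, had a Log2FC of 0.30 (SE 0.12) in WT and 0.59 (SE 0.21) in Prkd3-/-, with adjusted p-values of 0.253 and 0.676 by edgeR. Ppargc1a and Ppargc1b, the coactivators that drive biogenesis, had group means of 0.333 to 0.942 CPM and of 0.700 to 1.47 CPM. Of 3 subunits or regulators that the name rule leaves out, Atpif1, the inhibitor of the ATP synthase, had a Log2FC of -0.23 in WT and -0.34 in Prkd3-/-, Usmg5 had 0.05 and -0.05, and Ndufb1-ps had 0.04 and -0.30, none of them past an adjusted p-value under 0.05 by edgeR, with 1 of the 3 at an unadjusted p under 0.05 in WT and 0 in Prkd3-/-.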

How the data were processed

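RNA of 13 MEF cultures was sequenced from poly-A libraries. The deposited counts are raw counts per gene; per the file headers and the labels, the authors aligned with STAR 2.7.10a to GRCm38 and counted read pairs with featureCounts of Subread 2.0.6, ignoring strand, giving a pair to every gene it overlapped and leaving out pairs with several places. The command is in the WT table only; for the Prkd3-/- table the counting options are not given in the sources used here. Symbols came from GENCODE M21. The members and lists were chosen with earlier results of these data known.

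Counts were tested within each genotype with edgeR 4.0.16 (R 4.3.3), using filterByExpr with a minimum count of 10, TMM, and the robust quasi-likelihood test over all genes with Benjamini-Hochberg adjustment; the interaction was fitted over all 13 libraries. The script was tested on simulated data that gave a gene the same dispersion in both states, so unequal spread of the states was not covered. CPM use TMM-scaled library sizes set within a genotype, FPKM divide them by exon length, and ratios of single lines use log2(CPM + 1). Standard errors come from Log2FC and F, and 95% intervals from the t quantile of the fit. DESeq2 1.42.0, limma 3.58.1 with a weight per state, other scalings, filters and samples were alternatives. Libraries held 35273408 to 100441756 counts, so 3 counts equal 0.0288 to 0.0877 CPM. P-values measure the spread between cultures, of which Prkd3-/- lines 13 and 13a share a clone.

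Named were core subunits, isoform sets, the members with the smallest p of each sign in each complex and genotype, members past the thresholds, and the highest and lowest FPKM. Clone numbers pair primary and immortalized cultures of the same clone, as the titles give them. Same-numbered deviations correlated at -0.08, 0.04 and -0.09 in WT and at 0.12, -0.31 (line 13a), 0.05 and 0.05 in Prkd3-/-.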

Additional observations from a re-analysis of the deposited data

Results flagged for a closer look

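Each of the following libraries lay far from the other 3 of its group of 4 by Dixon's test, which chance passes in about 1 of 20 groups. The 36 named members with any difference among the 4 Prkd3-/- lines were examined, and 3 passed. Uqcrfs1, the Rieske protein of complex III, stood at 104.8 CPM in Prkd3-/- line 13 and at 59.8 to 63.3 CPM in the other lines. Atp5g1, a c subunit gene of the ATP synthase, stood at 18.9 CPM in Prkd3-/- line 15 and at 26.5 to 27.3 CPM in the other lines. Cox8b, a muscle form of a complex IV subunit, had 2 counts (0.0277 CPM) in Prkd3-/- line 15 and 0 in the other lines, which passes by construction and lies under the floor of 3 counts.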

How the results depend on the processing

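DESeq2 placed 1 WT member, Cox4i2, past the study's thresholds. At an adjusted p-value under 0.05 in WT, edgeR called 2 members with library size alone (Cox4i2 and Sdhb), against 5.88% of all genes. With at least 10 counts in every library it called 0, against 2.69%, and Cox4i2 was not tested. With the clone number as a block it called 0, against 1.08%, and in the joint fit of all 13 libraries 0, against 0.528%. As reported the share of all genes was 5.27%. Leaving out 1 library gave 0 to 5 WT members, 0 without any 1 of the primary libraries, where 1.42 to 1.47% of all genes were called, and 5 of 91 without WT line 3 (Cox4i2, Sdhb, Uqcr11, Ndufa12 and Ndufa13), where 12.2% of all genes were, and the cause was not tested. No member was called in Prkd3-/- or by the interaction under any alternative run. Of all genes, these runs called at most 353 of 24343 in Prkd3-/- and 37 of 30046 by the interaction, both with DESeq2. The block changed no other call. The median WT Log2FC moved to -0.093 with library size alone, which moved the median of all genes from 0.04 to -0.10. Among members with under 10% of windows repeated, chosen after seeing the data, 1 was called in WT and 0 in Prkd3-/-.

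Uncalled values near 0 changed sign. With limma, the values that did so were Cox8a (-0.017) in WT and Ndufa4l2 (-0.29) and Uqcrq (0.095) in Prkd3-/-. With library size alone, the values that did so were Ndufv1 (-0.080), Cox4i1 (-0.078), Cox5a (-0.090), Cox6a1 (-0.044), Cox8a (-0.11), Atp5g1 (-0.080), Atp5g2 (-0.0058), Ndufa5 (-0.011) and Uqcrb (-0.13) in WT. With at least 10 counts in every library, the values that did so were Cox8a (-0.015) and Uqcrb (-0.022) in WT and Cox6a1 (-0.016) and Atp5g1 (-0.0039) in Prkd3-/-. With the replicate block, the values that did so were Cox8a (-0.018) in WT. Without a filter, the values that did so were Ndufa4l2 (-0.0030) in Prkd3-/-. In the joint fit, the values that did so were Ndufs1 (0.0036) in Prkd3-/-. With lines 13 and 13a summed, the values that did so were Uqcrfs1 (-0.026), Atp5g1 (-0.031) and Atp5s (0.069) in Prkd3-/-. Leaving out 1 library in WT moved Cox4i1 from -0.0035 to 0.15, Cox5a from -0.012 to 0.080, Cox6a1 from -0.055 to 0.18, Cox6b1 from -0.098 to 0.077, Cox7b from -0.13 to 0.012, Cox8a from -0.22 to 0.13, Ndufa4 from -0.12 to 0.022, Uqcrb from -0.031 to 0.073 and Uqcrc1 from -0.16 to 0.018. Leaving out 1 library in Prkd3-/- moved Atp5a1 from -0.17 to 0.35, Atp5g1 from -0.036 to 0.14, Atp5g3 from -0.15 to 0.059, Atp5mpl from -0.21 to 0.015, Atp5s from -0.32 to 0.12, Cox5a from -0.27 to 0.078, Cox6a1 from -0.068 to 0.11, Cox7a2 from -0.0056 to 0.23, Cox7a2l from -0.19 to 0.057, Ndufa4l2 from -0.20 to 0.41, Ndufs1 from -0.14 to 0.099, Sdha from -0.049 to 0.18, Uqcrfs1 from -0.14 to 0.19 and Uqcrq from -0.31 to 0.088.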
